A study of Homo sapiens with 11 samples.

Results

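The annexins are a family of calcium-dependent phospholipid-binding proteins. With earlier results of these data known, 10 family members were picked from 25590 genes by gene name, not by their values. These members were ANXA1, ANXA2, ANXA3, ANXA4, ANXA5, ANXA6, ANXA7, ANXA9, ANXA10 and ANXA11. They were followed in 11 tumours of PC-3, an established human prostate carcinoma cell line, that had grown subcutaneously in male athymic nude mice (Crl:NU-Foxn1nu), which lack mature T cells. The mice were 8 weeks old when they received the cells. From day 7 to day 31, on alternate days, mice were given A2M* intraperitoneally at 5.6 mg per 20 g body weight (6 tumours). Control mice were given PBS (5 tumours). This schedule is from the authors' figure legend, and their methods state the frequency and duration differently. A2M* is the transformed, receptor-binding form of the plasma proteinase inhibitor alpha-2-macroglobulin. One RNA library was made from each tumour, reads assigned to the mouse host had been removed by the authors, and tumours are named here by treatment and by T with their tumour number.

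Annexins share a core built from repeats of one fold that binds calcium and, through it, acidic phospholipids such as phosphatidylserine on the inner face of the plasma membrane. Their amino-terminal tails differ and carry the contacts to S100 proteins and other partners. The family is known for work at membranes: ANXA1, ANXA2, ANXA4, ANXA5, ANXA6 and ANXA7 take part in the sealing of damaged plasma membrane, ANXA2 with S100A10 forms a cell surface receptor for plasminogen, and secreted ANXA1 acts on formyl peptide receptors. ANXA5 is widely used as a probe for phosphatidylserine on dying cells.

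ANXA2 is the member whose sequence bears most on its measurement, because the genome holds processed copies of its mRNA. ANXA2 lies on the minus strand at chr15:60639333-60695082 (GRCh37, the build the authors call hg19) and its canonical transcript has 12 coding exons and 1017 coding bases before the stop codon. The pseudogene ANXA2P2 (chr9:33624272-33625291) differed from that coding sequence at 16 of 1017 aligned bases, an identity of 98.4%. Identity was 93.8% for ANXA2P1 (chr4:154228944-154229869) and 92.2% for ANXA2P3 (chr10:66585329-66586336). Coding exon 11 of ANXA2, at chr15:60641274-60641396, is shown with the matching stretches of the copies at chr9:33625109-33625231, chr4:154228957-154229079 and chr10:66586158-66586280 (GRCh37), each written 5′ to 3′ on the coding strand. Capitals in ANXA2 mark bases at which at least 1 copy differs, and capitals in a copy mark its differences from ANXA2.
ANXA2: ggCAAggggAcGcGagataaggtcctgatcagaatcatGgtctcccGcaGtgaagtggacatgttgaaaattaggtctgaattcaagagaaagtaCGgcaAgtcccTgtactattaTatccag
ANXA2P2: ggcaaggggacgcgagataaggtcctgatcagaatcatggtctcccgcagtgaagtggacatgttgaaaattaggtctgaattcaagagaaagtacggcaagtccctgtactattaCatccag
ANXA2P1: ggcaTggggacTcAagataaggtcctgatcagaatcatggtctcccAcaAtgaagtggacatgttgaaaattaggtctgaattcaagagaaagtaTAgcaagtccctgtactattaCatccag
ANXA2P3: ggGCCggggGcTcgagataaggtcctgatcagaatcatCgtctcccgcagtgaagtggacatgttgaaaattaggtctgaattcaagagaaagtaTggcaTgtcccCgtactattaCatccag
Over this exon ANXA2P2 differed from ANXA2 at 1 base, ANXA2P1 at 8 and ANXA2P3 at 10. Of all stretches of 50 bases in the canonical ANXA2 transcript, 38.2% occurred unchanged in the annotated transcript of another gene, and of all stretches of 100 bases 19.7% did, each of these in ANXA2P2. ANXA7 had 2.55% of its 50-base stretches in another gene, an unnamed gene on the opposite strand whose exons overlap its own, and ANXA11 had 0.374%. For ANXA1, ANXA3, ANXA4, ANXA5, ANXA6, ANXA9 and ANXA10 no 50-base stretch was found elsewhere in the annotated transcripts. Between members, identity over the aligned coding bases ranged from 52.4% (ANXA3 with ANXA9) to 62.9% (ANXA2 with ANXA6).

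Counted reads amounted to between 16958533 and 35874381 in a tumour, and 3 counts, the floor taken for a level, equalled 0.0836 to 0.177 RPM (reads per 1000000 counted reads), which covers counting error only. The epithelial markers KRT8, KRT18, KRT19, EPCAM and CDH1 summed to between 1685 and 2699 CPM (counts per 1000000 counts, scaled by the trimmed mean of M values, TMM) in the 11 tumours, so the defining markers of the labelled epithelial tumour cells were present. The endothelial markers summed to between 15.8 and 24.6 CPM, most of it PECAM1, and the leukocyte markers to between 32.1 and 42.2 CPM, most of it CD68, with CD163 at 0 to 0.0598 CPM. Those of fibroblasts and mural cells summed to between 322 and 929 CPM, nearly all of it COL1A1, with DCN at 0 to 0.108 CPM. No marker that could be tested differed between the groups at an adjusted p under 0.01 (edgeR quasi-likelihood test). The stroma of these xenografts is of the mouse host, whose reads had been removed. The sums for endothelium, fibroblasts and mural cells, and leukocytes therefore do not measure the content of these host cells or compare it between the groups. In bulk tumours, fewer cells of a type and less RNA per cell cannot be told apart.

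Most annexins were abundant in PC-3 tumours, with ANXA2 highest and ANXA10 at or under the floor. Together the 10 members took between 0.288% and 0.353% of all counts in a tumour. Levels of different genes are compared in RPKM, the RPM value per kilobase of exon as the authors deposited it. ANXA2, the plasminogen receptor component, had a median of 826 RPKM over the 11 tumours and a range from 666 to 882, which placed it at rank 51 of all 25590 genes. It alone made up between 41.9% and 49.1% of the RPKM summed over the members. How far reads shared with its copies affect these ANXA2 values was not tested. ANXA5, the phosphatidylserine binder, followed with a median of 273 RPKM (range 254 to 341).

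The next pair were ANXA7 (chr10:75134859-75173834, minus strand), known for the aggregation of granules, with a median of 201 RPKM (179 to 230), and ANXA1 (chr9:75766781-75785309, plus strand), the anti-inflammatory member, with 188 RPKM (153 to 213). Their ranges overlapped, although ANXA7 was above ANXA1 in 10 of 11 tumours. ANXA11 (chr10:81910645-81965328, minus strand), a partner of S100A6, had a median of 87.2 RPKM (79.6 to 92.1). ANXA3 (chr4:79472901-79531605, plus strand) had 82.0 RPKM (63.3 to 92.8). ANXA6 (chr5:150480267-150537376, minus strand), in which the core is duplicated and which has 25 coding exons, had 64.8 RPKM (52.0 to 83.8). These 3 could not be separated by their ranges: ANXA11 was above ANXA3 in 8 of 11 tumours and ANXA3 above ANXA6 in 10 of 11. ANXA4 (chr2:69871557-70054244, plus strand), abundant in secretory epithelia, had 31.6 RPKM (28.1 to 32.4), below ANXA6 in all 11 tumours.

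Among the 10 members, ANXA9 and ANXA10 stood far below the others. The annexin genes ANXA8 and ANXA8L1, which are not among the 10, had medians of 6.86 and 5.82 RPKM, between ANXA4 and ANXA9. ANXA9 (chr1:150954725-150968110, plus strand), whose core has lost the usual calcium-binding residues, had a median of 2.57 RPKM (2.04 to 3.21), and ANXA4 exceeded it between 9.96-fold and 14.6-fold in each tumour. ANXA10 (chr4:169013688-169108887, plus strand), a member typical of gastric epithelium, was counted 11 times in all 11 tumours together. No tumour had more than 3 ANXA10 counts and 4 tumours had none, so its level did not exceed the floor of 3 counts in any tumour. ANXA5 lies at chr4:122589101-122618150 on the minus strand. By the ranges, only the steps from ANXA2 to ANXA5, ANXA5 to ANXA7, ANXA1 to ANXA11, ANXA6 to ANXA4, ANXA4 to ANXA9 and ANXA9 to ANXA10 were without overlap between neighbours. In CPM, which is not divided by length, 6 of the 10 members took another rank.

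**Figure D1:**
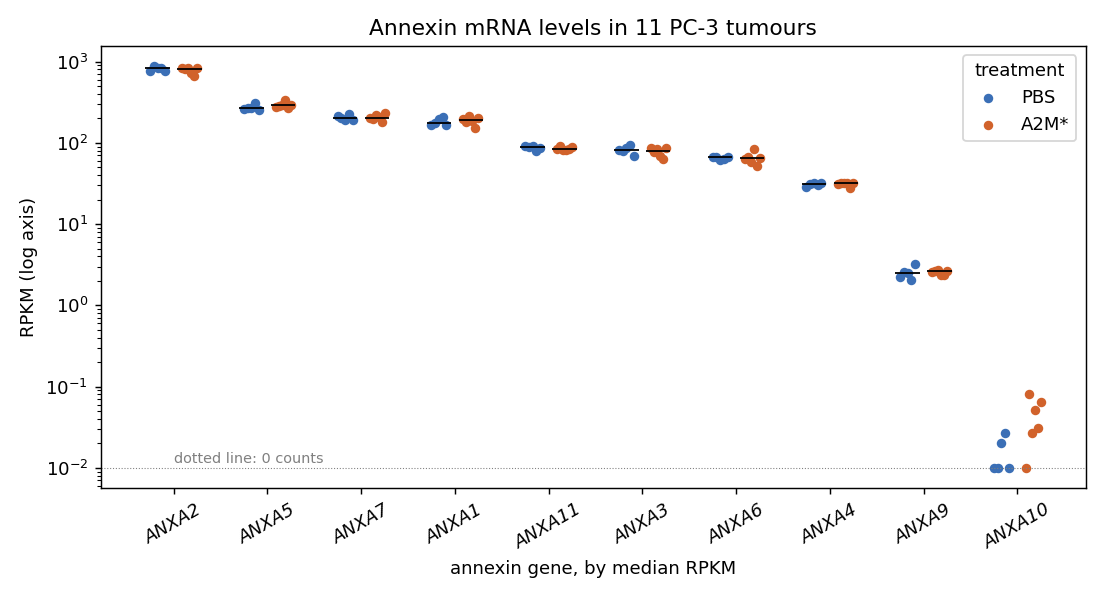
RPKM of each annexin gene (log axis) in the 5 PBS tumours (blue) and the 6 A2M* tumours (orange), ordered by the median over the 11 tumours, with 1 point per tumour and a black line at the group median where no tumour was at 0. ANXA2 lies between 666 and 882 RPKM, ANXA9 between 2.04 and 3.21, and ANXA10 is at 0 counts in 4 tumours (points on the dotted line).

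The comparison of A2M* with PBS asked whether treatment of the host was accompanied by other annexin mRNA levels in the tumour cells. None of the 9 members that could be tested differed between the groups, and their values overlapped in each case. ANXA10 was too low for the filter and was not tested. The CPM values were scaled for library composition and are used for comparisons of one gene between tumours.

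ANXA2 had 1392, 1670, 1573, 1523 and 1400 CPM in PBS tumours T123, T124, T125, T126 and T127. In the 6 A2M* tumours its lowest value was 1178, its median 1455 and its highest 1536 CPM. Tumours T131 and T132 of the A2M* group lay below all PBS tumours and the other 4 lay within the PBS range. The log2 fold change (A2M* minus PBS) was -0.11 (standard error 0.0861, 95% interval -0.29 to 0.08, edgeR quasi-likelihood test, adjusted p = 0.852). In linear terms the interval ran from 0.815-fold to 1.05-fold.

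ANXA3, like ANXA2, had a log2 fold change below 0 that did not pass the test. Its PBS tumours, in the same order, had 131.4, 134.9, 143.9, 149.3 and 113.0 CPM. The A2M* tumours ranged from 99.9 to 141.6 CPM with a median of 127.9. A2M* tumours T131 and T132 were below all PBS tumours. The log2 fold change was -0.12 (standard error 0.1002, 95% interval -0.33 to 0.10, edgeR, adjusted p = 0.866), and the lower bound of this interval, 0.793-fold, was the farthest from no difference of any member in this fit. Without A2M* tumour T132 the log2 fold change was -0.0646 for ANXA2 and -0.0641 for ANXA3.

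ANXA5 and ANXA1 were the 2 tested members with a positive log2 fold change. For ANXA5 the PBS tumours had 413, 447, 444, 488 and 415 CPM, and the A2M* tumours ranged from 419 to 530 CPM with a median of 457. The highest value was that of A2M* tumour T131, and the other 5 A2M* tumours lay within the PBS range. Its log2 fold change was 0.07 (standard error 0.0739, edgeR, adjusted p = 0.906), and 0.0243 without T131. ANXA1 had 259 ± 26.6 CPM (SD, n = 5) with PBS and 261 ± 29.3 CPM (SD, n = 6) with A2M*. Its log2 fold change of 0.01 turned negative in 5 of the 11 fits that left out a tumour.

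The remaining tested members, ANXA4, ANXA6, ANXA7, ANXA9 and ANXA11, had log2 fold changes between -0.08 and -0.02. ANXA11 had 324 ± 21.8 CPM (SD, n = 5) with PBS and 305 ± 20.3 CPM (SD, n = 6) with A2M* (log2 fold change -0.08, edgeR, adjusted p = 0.858). ANXA6 was evenly expressed under PBS at 206 ± 8.09 CPM (SD, n = 5), while the A2M* tumours spread from 158 CPM in tumour T132 to 254 CPM in tumour T131. ANXA7 had 458 ± 27.9 CPM (SD, n = 5) and 447 ± 41.0 CPM (SD, n = 6). ANXA4 was among the steadiest members, with 67.0 ± 4.69 CPM (SD, n = 5) and 65.9 ± 3.93 CPM (SD, n = 6). ANXA9 had 4.67 ± 0.870 CPM (SD, n = 5) and 4.601 ± 0.288 CPM (SD, n = 6), from 81 to 210 counts per tumour. ANXA10 had 3 of 5 PBS tumours and 1 of 6 A2M* tumours at 0 counts, with 2 counts in the PBS group and 9 in the A2M* group, each tumour at or under the floor.

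**Figure D2:**
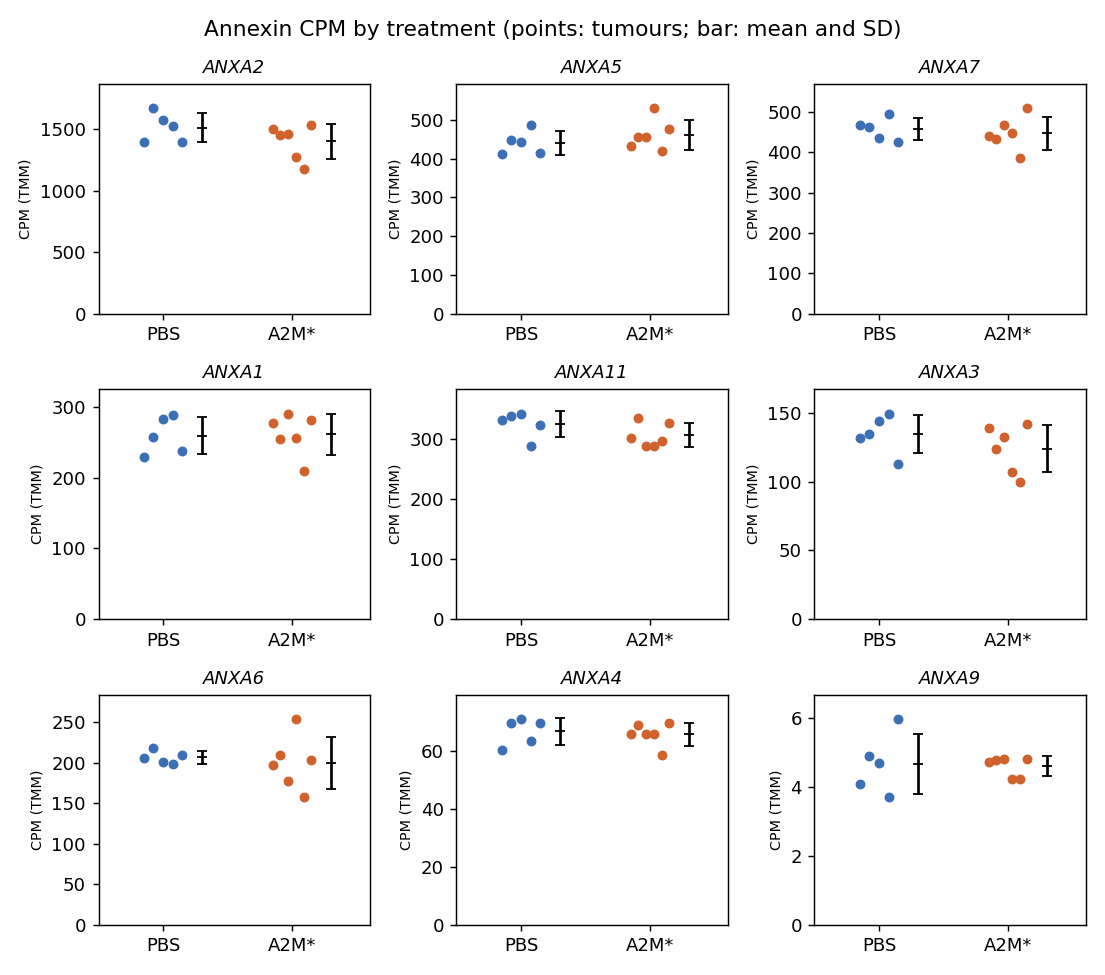
CPM of the 9 tested annexin genes by treatment, with 1 point per tumour (PBS, n = 5, blue; A2M*, n = 6, orange) and the group mean with its SD as a black bar; each axis starts at 0. In every panel the points of the groups overlap, and A2M* tumour T131 stands highest for ANXA6 at 254 CPM and for ANXA5 at 530 CPM.

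Read against all genes, the members' counts were as follows. By edgeR's quasi-likelihood test, 0 of 9 members and 0 of all 16630 genes tested, 0% of them, were called at an adjusted p under 0.01. With an unadjusted p under 0.05 the count was 0 members, against 1178 genes or 7.08% of all. DESeq2, limma-voom and the other edgeR tests also called 0 members, by an adjusted p under 0.01 as by an unadjusted p under 0.05. The groups did not overlap in CPM for 0 members, against 118 genes or 0.71% of all. The median log2 fold change of the 9 members was -0.03, that of all genes was -0.00213, and 7 members were lower and 2 higher. A p that misses the threshold does not show that levels were equal, but 0.334 on the log2 scale was the farthest bound of any member's 95% interval in either direction.

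**Figure D3:**
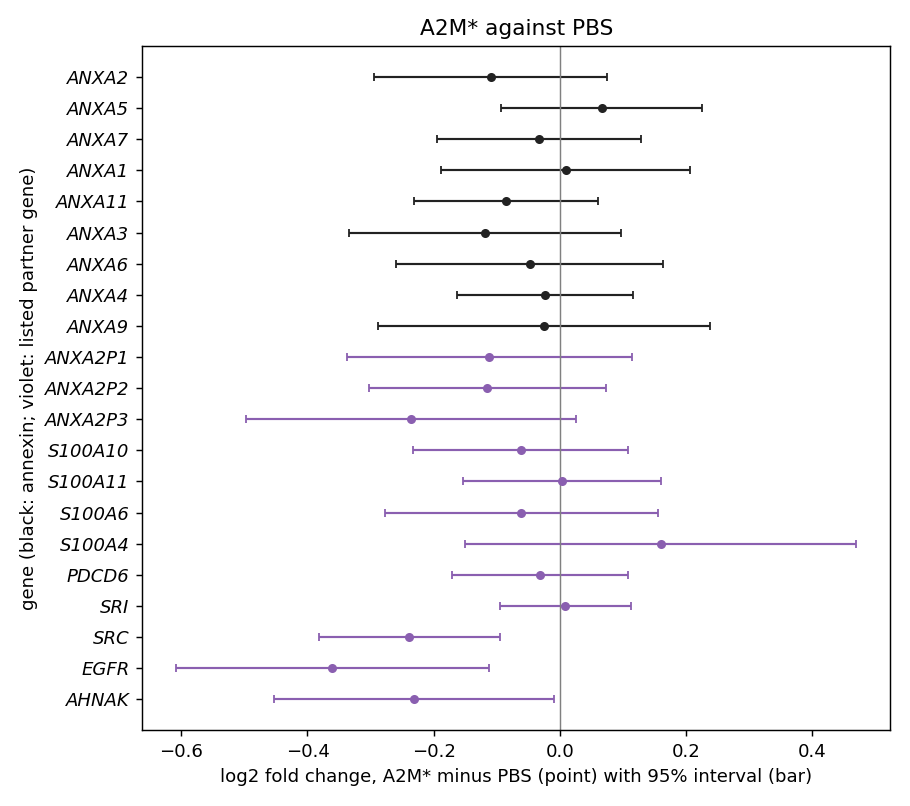
Log2 fold change (A2M* minus PBS, points) with its 95% interval (bars) for the 9 tested annexin genes (black) and for ANXA2 copies and listed partner genes (violet). The intervals of the annexins include 0, and those of SRC, EGFR and AHNAK lie below 0 before adjustment for multiple testing.

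The other genes of the annexin system were taken from lists of relatives, calcium-binding partners, receptors and effectors, membrane repair genes and phosphatidylserine transport genes. At an adjusted p under 0.01 none of the 43 tested genes of these lists was called (edgeR). S100A10, which joins ANXA2 in a heterotetramer, had a median of 440 RPKM (412 to 509). S100A11, the partner of ANXA1, had 743 RPKM (680 to 824), and S100A6, which binds ANXA11 and other annexins, had 2288 RPKM (1824 to 2504), rank 5 of all genes. The partners were thus among the most abundant transcripts, and their log2 fold changes were -0.06 for S100A10, 0.00359 for S100A11 and -0.06 for S100A6. S100A4, a metastasis-associated partner of ANXA2, had 60.5 ± 10.3 CPM (SD, n = 5) with PBS and 67.6 ± 14.0 CPM (SD, n = 6) with A2M*, a log2 fold change of 0.16 (standard error 0.144), which was 0.0709 without A2M* tumour T112 and 0.0816 without PBS tumour T123. PDCD6 (ALG-2) and SRI (sorcin), EF-hand partners of ANXA7 and ANXA11, had log2 fold changes of -0.03 and 0.00860. Of these 6 calcium-binding partners 3 were higher and 3 lower, with 0 at an unadjusted p under 0.05.

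Of the formyl peptide receptors, FPR1 and FPR2 were scarce, and FPR3 was low but high enough to test. FPR2 was counted at most 2 times in a tumour and FPR1 at most 9 times, both too low to test. FPR3 was counted 96 to 300 times, with a median of 2.64 RPKM. Of the 7 receptors and effectors tested, 3 were higher and 4 lower. An unadjusted p under 0.05 was found for 2 of the 7, SRC and EGFR, where 7.08% of all genes had one. SRC, the tyrosine kinase that phosphorylates ANXA2, had 125.6, 136.0, 137.9, 120.2 and 135.6 CPM in the PBS tumours and from 100.8 to 125.7 CPM, with a median of 110.0, in the A2M* tumours. A2M* tumour T129 overlapped the PBS range and the other 5 were below it. The log2 fold change was -0.24 (standard error 0.0668, adjusted p = 0.599, edgeR quasi-likelihood test). EGFR, the epidermal growth factor receptor, had 43.1, 49.4, 66.1, 66.7 and 48.8 CPM with PBS and from 38.9 to 49.6 CPM, median 41.7, with A2M*. Of the A2M* tumours, 3 lay within the PBS range and 3 below it. The log2 fold change was -0.36 (standard error 0.115, adjusted p = 0.640, edgeR quasi-likelihood test).

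Among the 16 membrane repair genes tested, which include dysferlin (DYSF), calpains and ESCRT-III subunits, 3 were higher and 13 lower, with a median log2 fold change of -0.07. Of all 16630 genes tested, 8220 were higher and 8410 lower, with a median of -0.00213. AHNAK, the 1 of these 16 genes with an unadjusted p under 0.05 (7.08% of all genes), a giant scaffold protein that binds ANXA2 with S100A10, and had 1925 ± 299 CPM (SD, n = 5) with PBS and 1640 ± 108 CPM (SD, n = 6) with A2M* (log2 fold change -0.23, standard error 0.103, adjusted p = 0.698, edgeR). PBS tumour T123 had 1399 CPM, below all A2M* tumours. Of the 8 phosphatidylserine transport genes tested, such as the scramblases ANO6 and XKR8 and the flippase subunit TMEM30A, 4 were higher and 4 lower, with 0 at an unadjusted p under 0.05. The 6 annexin relatives tested were all lower, with log2 fold changes from -0.24 for ANXA2P3 to -0.01 for ANXA8 and 0 at an unadjusted p under 0.05. They are not 6 separate measurements, because ANXA2P1, ANXA2P2 and ANXA2P3 are copies of ANXA2, and ANXA8 and ANXA8L1 are nearly the same sequence. The near-identical ANXA8 and ANXA8L1, 99.8% alike over the aligned coding bases, were counted in a ratio of 41.0% to 51.1% (ANXA8L1 to ANXA8), and how the counting divided reads between them is uncertain.

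The count of ANXA2P2, the copy most like ANXA2, followed that of ANXA2 closely. ANXA2P2 was counted 3413 to 7334 times per tumour, which was 13.51% to 14.995% of the ANXA2 count in each of the 11 tumours. ANXA2P1 had 1.012% to 1.251% and ANXA2P3 0.170% to 0.238% of the ANXA2 count. The correlation of these 2 with ANXA2 was not tested. Over the 11 tumours, log2 CPM of ANXA2 and ANXA2P2 correlated with Pearson's r = 0.944 (permutation p = 1e-05, the smallest that 100000 permutations can give, adjusted p = 5e-05 over 5 pairs) and Spearman's rho = 0.955 (permutation p = 3e-05). Without tumours T124 and T132, the farthest from the median of ANXA2, r was 0.836 (permutation p = 0.00324). The stretches shown above are shared, and the setting for reads with several hits is not given in the sources used here. Reads of ANXA2P2 and ANXA2 therefore cannot be told apart fully, and the levels of both are uncertain. Shared reads would also make the counts of both move together, so this correlation and its p-values do not show that the genes themselves varied together. How far reads were shared was not tested.

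**Figure D4:**
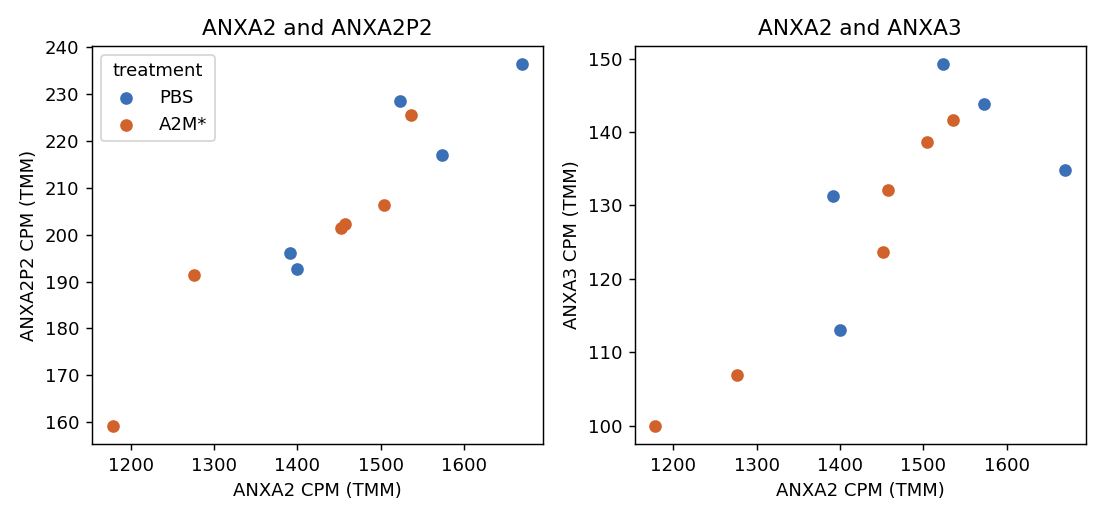
CPM of ANXA2 (horizontal axis) against CPM of its processed copy ANXA2P2 (left) and of ANXA3 (right), 1 point per tumour, PBS in blue and A2M* in orange; the axes do not start at 0. Pearson's r of log2 CPM is 0.944 on the left and 0.873 on the right, and A2M* tumour T132 is lowest for all 3 genes.

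For 3 pairs of proteins known to bind each other, the correlation of mRNA levels missed an adjusted p of 0.05, which does not show that they varied independently. ANXA2 and S100A10 had r = 0.642 (permutation p = 0.0335, adjusted p = 0.0558 over 5 pairs) and rho = 0.564 (permutation p = 0.0764), and r = 0.555 without tumours T124 and T132 (permutation p = 0.120). Its adjusted p passed 0.05 without T126 alone (r = 0.775) or T132 alone (r = 0.723). ANXA1 and S100A11 had r = 0.0460 (permutation p = 0.893) and rho = -0.07 (permutation p = 0.839), and r = -0.33 without tumours T123 and T132. ANXA11 and S100A6 had r = 0.222 (permutation p = 0.504) and rho = 0.345 (permutation p = 0.298), and r = -0.10 without tumours T130 and T131. Beside these, ANXA1 and ANXA2 had r = 0.711 (permutation p = 0.0143) and rho = 0.691 (permutation p = 0.0220, adjusted p = 0.0550 over 5 pairs). The adjusted permutation p of this r was 0.0359 over 5 pairs and 0.129, above 0.05, over the 36 pairs of members. The 5 pairs include ANXA2 with its near-identical copy ANXA2P2. That pair had the smallest p, which lowers the adjusted p of ANXA1 with ANXA2. An adjustment without it was not run. Without tumours T123 and T132 the r of ANXA1 with ANXA2 was 0.386 (permutation p = 0.309), and the relation no longer held. It was 0.461 without T132 alone and 0.724 without T123 alone. After the group means were removed r was 0.794 (permutation, adjusted p = 0.01025 over 5 pairs and 0.0492 over the 36 pairs of members).

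Among the 36 pairs of the 9 tested members, r was above 0 for 30 and ranged from -0.42 (ANXA5 with ANXA11) to 0.873 (ANXA2 with ANXA3), with a median of 0.298. ANXA2 with ANXA3 was the 1 pair with an adjusted p under 0.05 over the 36 (permutation p = 0.00045, adjusted p = 0.0162). Its rho was 0.855 (permutation p = 0.00141, adjusted p = 0.0508), its r was 0.896 without tumours T124 and T132 and 0.854 after the group means were removed. Within the groups it was 0.569 over the 5 PBS tumours and 0.982 over the 6 A2M* tumours, and the difference between these was not tested. Of all other genes, 0.162% had an r with ANXA2 at least as high as that of ANXA3. ANXA1 with ANXA3 came next at r = 0.778 (permutation p = 0.00546, adjusted p = 0.0983). The same share, taken with the first-named gene, was 3.03% for ANXA1 with ANXA2. It was 22.6% for ANXA5 with ANXA7 and 75.1% for ANXA5 with ANXA11. The 36 pairs share 9 genes, and how often r is above 0 among other genes was not counted. A2M* tumour T132 had the lowest CPM of the 11 tumours for 6 of the 9 tested members, ANXA1, ANXA2, ANXA3, ANXA4, ANXA6 and ANXA7. For what share of all genes T132 was lowest was not counted, so this is not shown to be particular to annexins.

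**Figure D5:**
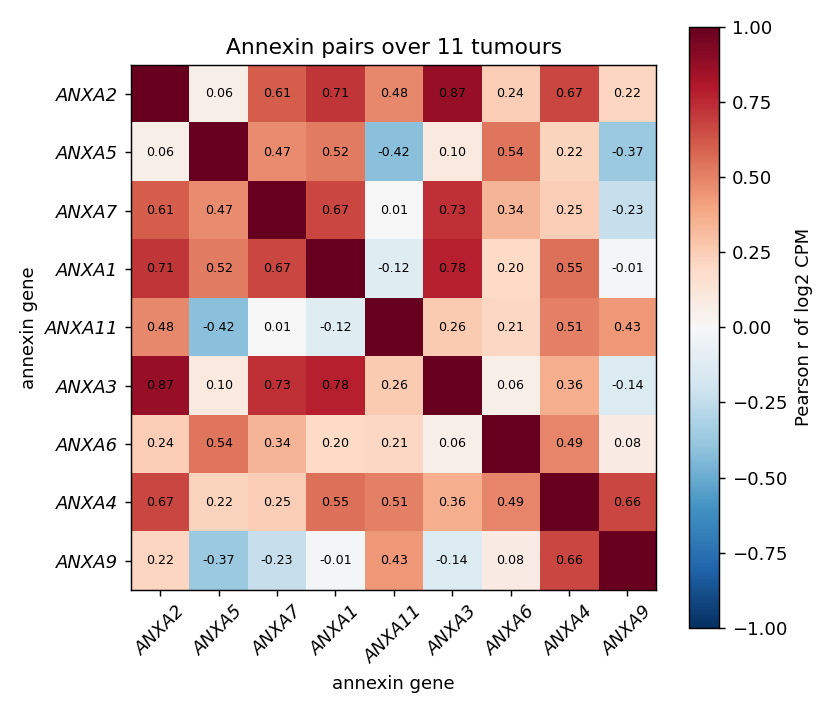
Pearson's r of log2 CPM over the 11 tumours for each of the 36 pairs of tested annexin genes, on a colour scale from -1 (blue) to 1 (red), with r printed in each cell. The genes are in order of median RPKM. The highest value is 0.873 for ANXA2 with ANXA3, and ANXA5 with ANXA11 is lowest at -0.42.

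The promoters of ANXA1, ANXA2 and ANXA3, the members with the highest correlations, are shown from 250 bases before to 50 bases after the start of transcription, as given by RefSeq for GRCh38.p14, at chr9:73151615-73151914 (plus strand), chr15:60397937-60398236 (minus strand) and chr4:78551520-78551819 (plus strand) of that build. All 10 members were found in that promoter table. Capitals mark matches, on either strand, to the motif TATAAA of core promoters, the motif CCAAT of upstream promoter elements, the GC-rich motif GGGCGG that Sp1 binds, the AP-1 motif TGACTCA and the E-box CACGTG.
ANXA1: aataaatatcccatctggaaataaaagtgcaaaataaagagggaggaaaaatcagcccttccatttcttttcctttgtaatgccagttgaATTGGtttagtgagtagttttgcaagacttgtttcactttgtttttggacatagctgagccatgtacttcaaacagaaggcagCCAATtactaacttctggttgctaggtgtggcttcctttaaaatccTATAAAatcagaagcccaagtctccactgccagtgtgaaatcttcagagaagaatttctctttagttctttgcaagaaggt
ANXA2: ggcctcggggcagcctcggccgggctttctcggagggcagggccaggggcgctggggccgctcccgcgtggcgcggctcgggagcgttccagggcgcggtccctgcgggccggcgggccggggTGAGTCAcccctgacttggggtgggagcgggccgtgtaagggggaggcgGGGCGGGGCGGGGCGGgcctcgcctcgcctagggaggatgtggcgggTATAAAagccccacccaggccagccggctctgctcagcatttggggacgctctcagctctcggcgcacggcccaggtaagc
ANXA3: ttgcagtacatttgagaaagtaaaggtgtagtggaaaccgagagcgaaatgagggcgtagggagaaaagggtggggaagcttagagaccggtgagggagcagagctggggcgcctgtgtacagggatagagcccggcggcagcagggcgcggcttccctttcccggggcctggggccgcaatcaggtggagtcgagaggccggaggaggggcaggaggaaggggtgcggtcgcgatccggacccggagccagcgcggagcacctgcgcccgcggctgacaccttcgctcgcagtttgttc
The ANXA1 window held 1 TATAAA, 2 CCAAT and no CpG dinucleotide, and 96% of the 35116 promoters in the table held more CpG. The ANXA2 window held 1 TATAAA, 3 GGGCGG, which overlap each other by their end bases, 1 TGACTCA and 32 CpG. The ANXA3 window held 25 CpG and none of these 5 motifs. Across the table, 11.5% of promoters held TATAAA, 34.6% CCAAT, 45% GGGCGG, 4.95% TGACTCA and 7.26% CACGTG, and the median was 14 CpG. The window of the nearly unexpressed ANXA10 held 0 CpG, as did that of the abundant ANXA1. Because the ANXA3 window held none of these 5 motifs, it could have none in common with any promoter, that of ANXA2 included. The motifs therefore cannot tell whether the pair that correlated most, ANXA2 and ANXA3, shares regulation. They also say nothing of factors that bind other letters or outside the window.

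The spread of a tested member over the 11 tumours, whatever the treatment, ranged from a coefficient of variation of 6.19% for ANXA4 to 12.7% for ANXA9, against 8.64% that counting alone gives for ANXA9 and 0.489% for ANXA2. The highest tumour exceeded the lowest 1.19-fold for ANXA11, 1.42-fold for ANXA2 and 1.61-fold for ANXA6 and ANXA9. Among 14897 genes with a mean of at least 1 CPM, those with a pattern over the 11 tumours most like ANXA9 were TMEM185B (r = 0.880), C3 (r = 0.866), CCDC92 (r = 0.859), SLC25A23 (r = 0.851) and STX1A (r = 0.847). Those most like ANXA2, looked up after its values had been seen, were OSMR (r = 0.946), ANXA2P2 (r = 0.944), PI4K2A (r = 0.931), DIAPH1 (r = 0.925) and SLC31A1 (r = 0.920). These values rank genes over the same 11 libraries and are descriptions only.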

How the data were processed

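Total RNA of 11 PC-3 xenograft tumours had been sequenced as single reads on TruSeq libraries. Per the labels, bcl2fastq 1.8.4 extracted the reads. The authors used xenome to set aside mouse reads, TopHat to align the rest to hg19, and featureCounts with a RefSeq annotation for counting. The deposited counts are whole and not normalized. The authors' deposited RPM values are counts per 1000000 counted reads of a tumour, and their deposited RPKM values divide RPM by exon length. Strand, multi-mapping setting and read length are not given in the sources used here.

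Groups were taken from the labels, without covariates. Counts were filtered with filterByExpr, which kept 16630 genes, scaled by TMM and compared by quasi-likelihood F-test (edgeR 4.0.16, R 4.3.3), with Benjamini-Hochberg adjustment over all genes tested and a threshold of 0.01. CPM denotes counts per 1000000 after TMM scaling. The standard error is the size of the log2 fold change divided by the square root of F. Correlations used log2 CPM (prior count 2) and 100000 two-sided permutations of the tumours. The quasi-likelihood comparison was tried on simulated counts with known fold changes. Alternatives were other size factors, filters, tests (DESeq2 1.42.0, limma 3.58.1), 1 surrogate variable (sva 3.50.0), log2(RPKM + 0.1) with limma, and omission of each tumour. Sequences and identities were read with Biopython 1.88 from GRCh37 with GENCODE, and promoters from RefSeq for GRCh38.p14.

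The members and gene lists were chosen with earlier results of these data known. Named were all members, S100 and EF-hand partners, the ANXA2 copies, listed genes with an unadjusted p under 0.05, and the 5 genes most correlated with the member of largest coefficient of variation. The labels number the tumours and do not name the mice, so p-values measure the spread between these tumours.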

Additional observations from a re-analysis of the deposited data

Results flagged for a closer look

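Among 48 sets of values of one gene in one group, 3 held a tumour whose distance from its neighbour, set against the range of its group, passed the 95% limit of Dixon's test, where about 2.4 are found by chance. ANXA4 had 58.6 CPM in A2M* tumour T132, against 65.8 to 69.7 CPM over the 5 others given A2M*. PDCD6 had 115 CPM in PBS tumour T125, against 102 to 105 CPM in the other 4 PBS tumours. AHNAK had 1399 CPM in PBS tumour T123, against 1978 to 2119 CPM in the other 4 PBS tumours.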

How the results depend on the processing

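No annexin was called under any alternative run, and the order by RPKM held with TMM-scaled CPM per kilobase and without each tumour; in CPM not divided by length 6 members changed rank. Over all genes DESeq2 called 1 gene, REP15, which is no annexin, and so did edgeR's exact and likelihood ratio tests. Of 462 log2 fold changes for 21 named genes, 434 kept direction and side of the threshold and 28, in 8 genes, changed sign, none of them past the threshold. With library size only, the log2 fold change was 0.0209 for ANXA4, 0.00901 for ANXA7, 0.0202 for ANXA9 and 0.013 for PDCD6. With limma-trend on RPKM these were 0.0207, 0.00776, 0.0369 and 0.0103. With 1 surrogate variable ANXA1 was at -0.0261 and ANXA9 at 0.0145, and without a filter S100A11 was at -0.00101. Leaving out each tumour gave log2 fold changes from -0.0326 to 0.0661 for ANXA1, -0.0588 to 0.00717 for ANXA4, -0.126 to 0.0112 for ANXA6, -0.0719 to 0.00649 for ANXA7, -0.0965 to 0.0797 for ANXA9, -0.0314 to 0.0367 for S100A11, -0.0637 to 0.00143 for PDCD6 and -0.00509 to 0.0225 for SRI. Without changing sign, the range was -0.138 to -0.0646 for ANXA2, -0.175 to -0.0641 for ANXA3, 0.0243 to 0.105 for ANXA5, 0.0709 to 0.228 for S100A4, -0.103 to -0.00679 for S100A10 and -0.128 to -0.00707 for S100A6, with the values nearest 0 without T132, T132, T131, T112, T124 and T131. The cause of these shifts was not tested.

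Leaving out each tumour, r ranged from 0.461 to 0.823 for ANXA1 with ANXA2 (lowest without A2M* tumour T132, with an adjusted p under 0.05 without T124, T126, T130 or T131 but not without any of the 7 others), from -0.205 to 0.278 for ANXA1 with S100A11, from -0.0445 to 0.403 for ANXA11 with S100A6 and from 0.487 to 0.775 for ANXA2 with S100A10, whose adjusted p passed 0.05 without PBS tumour T126 or A2M* tumour T132. All these adjusted p-values are over the 5 pairs, which include ANXA2 with ANXA2P2. With this adjustment, ANXA1 with ANXA2 missed 0.05 as rho (0.691) and without the 2 farthest tumours (0.386). It also missed 0.05 with library size only (0.675), and passed it with values centred on the group means (0.794). ANXA1 with S100A11 was -0.0727 as rho, -0.332 without the 2 farthest tumours and -0.0899 with library size only. ANXA11 with S100A6 was -0.0982 and -0.0103 in the last 2 of these settings. Without a filter, ANXA10 was tested and had an unadjusted p of 0.0507 (edgeR). No paired analysis was possible because the groups share no tumour numbers. ANXA9 is limited by 81 to 210 counts per tumour, and ANXA10 by at most 3.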
